A study of Homo sapiens with 12 samples.

Results

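The genes described here are 5 interferon-linked genes of ADP-ribosylation, PARP9, DTX3L, PARP14, PARP10 and PARP12, set beside PARP1 and PARP2, the family members of DNA strand break repair. All probe sets whose annotation names a single one of these 7 genes were taken, which gave 14 of the 54675 probe sets on the array. The interferon-linked genes hold 10 of them (PARP9 has 2, DTX3L 1, PARP14 2, PARP10 4 and PARP12 1), and the DNA repair genes hold 4 (PARP1 has 1 and PARP2 has 3). No further probe set names a member together with another gene.

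The 12 arrays came from 3 human cancer cell lines, PC-3 (prostate), HBC4 (breast) and MKN74 (gastric), each with 4 treatments and 1 array per line and treatment. Oligonucleotides that can fold into a G-quadruplex (G4), a structure of stacked guanines, were AS1411, a DNA aptamer, and (uuaggg)4, an RNA with the telomeric repeat. The controls were (uuaccc)4, an RNA of equal length that lacks the guanines, and the transfection reagent alone, given as lipofectamin only, although the series' design text counts those arrays as control oligonucleotides too. Per the labels about 100 pmol per well was given with Lipofectamine RNAiMAX to 300000 cells, which grew on a low-adhesion surface until they were harvested 72 h later. No DNA oligonucleotide without a G4 was among the groups, and the labels name no further cultures. The 3 arrays of a treatment are thus 3 different lines. A p-value for a treatment comparison rests on how far treatment differences vary from line to line, after line means are removed. This spread is pooled over the 4 treatments and drawn towards that of all probe sets. The intervals and p-values given here therefore do not come from the SD of the 3 line differences printed beside them. Tests within a line, between lines or of the interaction instead use arrays of different treatments in a line as replicates.

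In the family, an enzyme takes ADP-ribose from NAD and joins it to a protein or nucleic acid. PARP1 and PARP2 bind broken DNA and build chains of ADP-ribose that call in repair proteins. PARP10, PARP12 and PARP14 add single ADP-ribose units, and PARP9 works with the ubiquitin ligase DTX3L as a pair that binds ADP-ribose through macrodomains. The genes of PARP9, DTX3L, PARP10, PARP12 and PARP14 are known to be induced by interferon, the cytokine signal by which cells raise their antiviral defences, while PARP1 and PARP2 are made in most dividing cells without it.

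Values are log2 expression of a probe set relative to its own median over the 12 arrays, so 0 is that median, a difference of 1 is 2-fold, and neither the level of a gene nor the order of levels between genes can be read from them. A lower value in a culture can come from fewer cells that express the gene or from less of its RNA per cell, and these cannot be told apart. Arrays separated first by line, with a lowest correlation of 0.856 within a line and a highest of -0.171 between lines, the second being lowered by the centring. Of the line markers, 6 of 6 breast markers were highest in HBC4 (3 of them, ANKRD30A, PIP and ESR1, varying by 0.42 or less between lines), 2 of 4 prostate markers in PC-3 (HOXB13 and TMPRSS2, with KLK3 and KLK2 varying by 0.21 or less between lines) and 2 of 7 gastric markers in MKN74 (CLDN18 and GKN1, varying by 0.11 and 0.22), while the gastric trefoil factors TFF1 and TFF2 were 8.30 and 8.86 higher in PC-3 than in MKN74. Among 27 line, immune, endothelial and stromal markers 0 passed for G4 against controls, with mean differences between -0.31 (LYZ) and 0.41 (SCGB2A2). As 1.57% of all probe sets passed (adjusted p under 0.05), 0 of 27 is near the background and is no result about the markers.

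With the G4 oligonucleotides 6 of the 10 interferon-linked probe sets fell, at least 1 for each of the 5 genes, and 0 of the 4 probe sets of PARP1 and PARP2. On the probe set of each gene that fell most, PARP9 was 3.95-fold below the controls, PARP12 2.67-fold, PARP14 2.42-fold, DTX3L 2.14-fold and PARP10 1.96-fold. Averaged over all probe sets of a gene, the log2 fold change was -1.54 for PARP9, -1.42 for PARP12 and -1.10 for DTX3L. PARP14 then had -0.60 and PARP10 -0.22, the last without a call (limma adjusted p = 0.125 over 19775 genes). Differences in the fall between these genes were not tested. Called here means an adjusted p under 0.05 in limma, with Benjamini-Hochberg adjustment over 54613 probe sets, and each value is the mean of AS1411 and (uuaggg)4 minus the mean of (uuaccc)4 and the reagent alone. Across the array 1.57% of probe sets were called, 1.1% lower and 0.474% higher. The median log2 fold change was -1.03 over the 10 interferon-linked probe sets, 0.08 over the 4 of PARP1 and PARP2, and 0.02 over all probe sets. Without HBC4 the 6 called became 3 (PARP9 223220_s_at, PARP14 and PARP12), and with the cell line left out of the model 0.

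**Figure D1:**
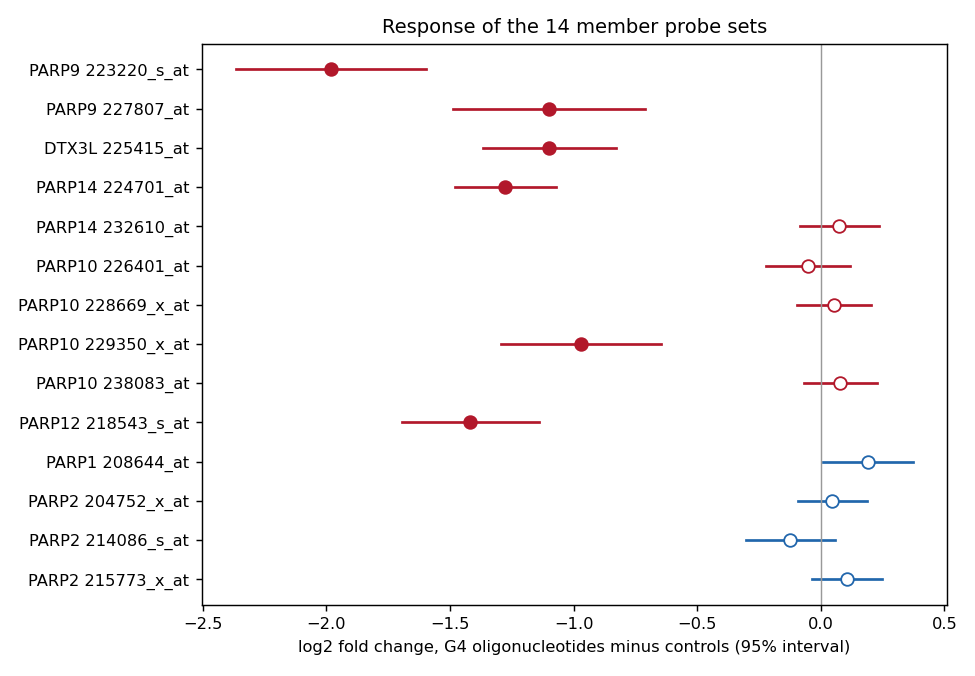
Log2 fold change of each of the 14 probe sets for the 6 G4 arrays minus the 6 control arrays (x axis), with its 95% interval as a line, for the interferon-linked genes (red) and PARP1 and PARP2 (blue). Filled points passed an adjusted p of 0.05. The 6 filled points lie between -1.98 and -0.97, and the other 8 lie between -0.12 and 0.19.

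PARP9, the macrodomain partner of DTX3L, had 2 probe sets. On 223220_s_at the PC-3 values were -1.20 with AS1411 and -0.88 with (uuaggg)4, against 1.37 with (uuaccc)4 and 1.62 with the reagent alone. HBC4 had -1.78 and -1.36 with these G4 oligonucleotides, against 0.69 and 0.54 with these controls. MKN74 had -0.87 and -0.52, against 0.52 and 0.55. All 6 G4 arrays were thus below all 6 control arrays, and AS1411 was the lowest array of each line. The log2 fold change was -1.98 ± 0.68 (SD of the line differences, n = 3 lines, 95% interval -2.37 to -1.60, limma adjusted p = 2.45e-04). The interval and p use the pooled spread (standard error 0.18) and not this SD, as for the other probe sets below.

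On the other probe set of PARP9, 227807_at, PC-3 had -1.09 with AS1411 and -0.46 with (uuaggg)4, against 0.97 with (uuaccc)4 and 1.23 with the reagent alone. HBC4 had -0.60 and -0.48, against 0.21 and 0.17. MKN74 had -0.60 and -0.17, against 0.20 and 0.41. The groups again did not overlap, with (uuaggg)4 in MKN74 the highest G4 array and the reagent alone in HBC4 the lowest control. This probe set had a log2 fold change of -1.10 ± 0.67 (SD, n = 3 lines, interval -1.49 to -0.71, limma adjusted p = 0.01245), a smaller mean than on 223220_s_at.

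DTX3L, the ubiquitin ligase that pairs with PARP9, had the single probe set 225415_at. In PC-3 it stood at -0.65 with AS1411 and -0.49 with (uuaggg)4, against 0.93 with (uuaccc)4 and 1.14 with the reagent alone. HBC4 had -0.44 and -0.28, against 0.55 and 0.55. MKN74 had -0.54 and -0.30, against 0.28 and 0.45. The G4 arrays lay between -0.65 and -0.28, below every control array, and the controls between 0.28 and 1.14, with PC-3 the highest. DTX3L thus had a log2 fold change of -1.10 ± 0.45 (SD, n = 3 lines, interval -1.37 to -0.83, limma adjusted p = 0.00105).

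PARP14, a macrodomain enzyme that adds single ADP-ribose units, had 2 probe sets that gave different answers. On 224701_at the PC-3 values were -0.29 with AS1411 and -0.22 with (uuaggg)4, against 1.06 with (uuaccc)4 and 1.28 with the reagent alone. HBC4 had -0.99 and -0.73, against 0.63 and 0.57, and MKN74 had -0.72 and -0.65, against 0.22 and 0.30. The groups did not overlap, and the SD of the line differences was the smallest of the 6 fallen probe sets. The mean difference was -1.28 ± 0.28 (SD, n = 3 lines, interval -1.48 to -1.07, limma adjusted p = 6.04e-05). The other probe set, 232610_at, ranged from -0.10 to 0.38 with G4 oligonucleotides and from -0.10 to 0.15 in controls, and its log2 fold change of 0.07 did not pass (interval -0.09 to 0.23, adjusted p = 0.663). With both averaged, PARP14 had a log2 fold change of -0.60 (limma adjusted p = 3.96e-04 over 19775 genes).

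PARP12, an enzyme with CCCH zinc fingers, had the single probe set 218543_s_at. In PC-3 it stood at -2.07 with AS1411 and -1.80 with (uuaggg)4, against -0.10 with (uuaccc)4 and 0.11 with the reagent alone. HBC4 had -0.35 and -0.14, against 0.99 and 1.08. MKN74 had -0.33 and 0.10, against 0.87 and 0.98. Both G4 arrays were below both control arrays in every line, but over the 12 arrays the groups overlapped, because PC-3 was lower as a line and its (uuaccc)4 control lay beneath (uuaggg)4 in MKN74. For PARP12 the log2 fold change was -1.42 ± 0.47 (SD, n = 3 lines, interval -1.70 to -1.14, limma adjusted p = 2.59e-04).

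PARP10, which adds single ADP-ribose units and was first described as a partner of MYC, had 4 probe sets, of which 1 fell. On 229350_x_at PC-3 had -0.05 with AS1411 and 0.11 with (uuaggg)4, against 1.44 with (uuaccc)4 and 1.79 with the reagent alone. HBC4 had -0.12 and 0.05, against 0.68 and 0.73, and MKN74 had -0.88 and -1.06, against -0.48 and -0.30. Within each line the G4 arrays were the lower pair, and the MKN74 controls lay below the G4 arrays of the other 2 lines. The line differences averaged -0.97 ± 0.54 (SD, n = 3 lines, interval -1.29 to -0.65, limma adjusted p = 0.00933).

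The other 3 probe sets of PARP10 ranged over only 0.29 to 0.61 across the 12 arrays, where 229350_x_at ranged over 2.85. Their log2 fold changes were -0.05 for 226401_at (interval -0.22 to 0.12, adjusted p = 0.799), 0.05 for 228669_x_at (-0.10 to 0.20, adjusted p = 0.745) and 0.08 for 238083_at (-0.07 to 0.23, adjusted p = 0.614). The first changed sign without the AS1411 array of PC-3 (0.0035) or without PC-3 (0.0019), and the second without MKN74 (-0.0045). Averaged over its 4 probe sets PARP10 had -0.22 and was not called (limma adjusted p = 0.125 over 19775 genes), so its call rests on 229350_x_at. Centred values hold no signal over background, so whether the flat probe sets of PARP10 and PARP14 were measured above it cannot be told.

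PARP1, the main sensor of DNA strand breaks, had the probe set 208644_at. Its G4 arrays ranged from -0.24 to 0.33 (median 0.14) and its control arrays from -0.23 to 0.01 (median -0.08). HBC4 had 0.33 with AS1411 and 0.11 with (uuaggg)4, against -0.01 with (uuaccc)4 and -0.23 with the reagent alone. MKN74 had 0.16 and 0.23, against -0.04 and 0.01, and PC-3 had -0.24 and 0.03, against -0.13 and -0.12. Both G4 arrays were above both controls in HBC4 and MKN74, and the groups overlapped in PC-3. The log2 fold change of 0.19 ± 0.16 (SD, n = 3 lines, interval 0.01 to 0.37) reached an unadjusted p of 0.043, as did 16.2% of all probe sets at 0.05, and was not called (limma adjusted p = 0.29).

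PARP2, the second strand break sensor, was followed by 3 probe sets, none of them called. 204752_x_at had a log2 fold change of 0.05 (interval -0.09 to 0.19, adjusted p = 0.766), 215773_x_at had 0.10 (-0.04 to 0.25, adjusted p = 0.461) and 214086_s_at had -0.12 (-0.30 to 0.06, adjusted p = 0.5). The G4 arrays of 204752_x_at ranged from -0.13 to 0.60 and its controls from -0.31 to 0.54, so the groups lay over each other. These intervals leave out a fall of the size seen for any of the 6 interferon-linked probe sets, whose intervals end at -0.65 or lower.

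**Figure D2:**
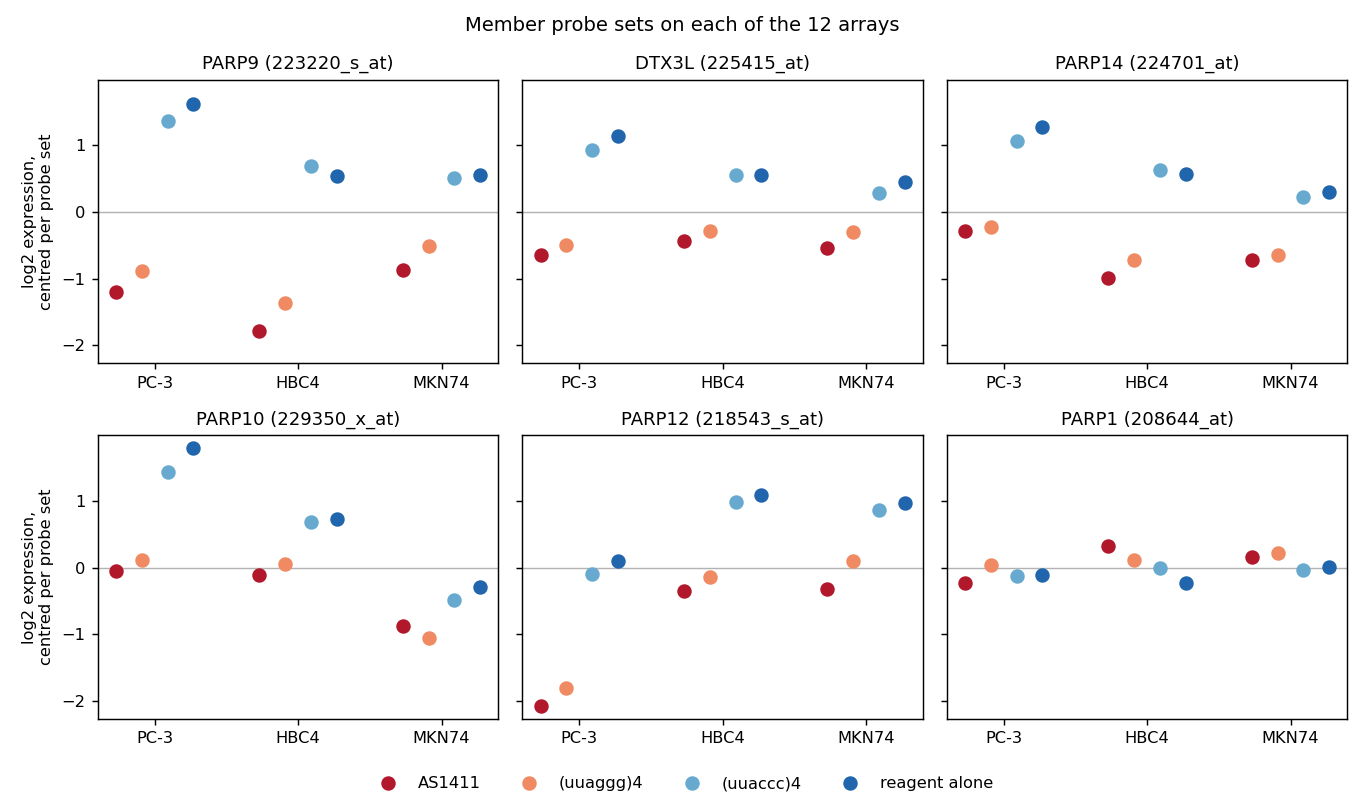
Log2 expression centred on each probe set's median (y axis) on each of the 12 arrays, by cell line (x axis) and treatment (colour). Shown is 1 probe set each of PARP9, DTX3L, PARP14, PARP10, PARP12 and PARP1, the one with the widest range over the arrays. The flat probe sets of PARP14 and PARP10, the other one of PARP9 and those of PARP2 are not shown. In the first 5 panels both G4 oligonucleotides lie below both controls in every line, with PARP9 spanning -1.78 to 1.62, while the PARP1 values lie between -0.24 and 0.33.

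All 6 G4 arrays lay below all 6 control arrays on 4 interferon-linked probe sets (both of PARP9, and those of DTX3L and PARP14 that fell), a pattern that 0.15% of all probe sets showed. Both G4 arrays lay below both controls in every line on 6, against 2.98% of all probe sets. With treatments exchanged exactly within each line (216 arrangements, two-sided permutation test), these 6 had p = 0.00926, the lowest that 216 arrangements allow. As 3161 probe sets had it too, the adjusted p of this permutation test was 0.16. PARP1 had p = 0.037 in the same exact permutation test (adjusted p = 0.267).

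The fall of the interferon-linked genes was also measured against the DNA repair genes on the same arrays, by taking the value of PARP1, or the mean of the 3 PARP2 probe sets, from every probe set before the fit. Relative to PARP1 the log2 fold change was -2.17 for PARP9 on 223220_s_at (interval -2.49 to -1.86), -1.61 for PARP12 (-1.86 to -1.35), -1.47 for PARP14 on 224701_at (-1.73 to -1.21), -1.29 for DTX3L (-1.54 to -1.03) and -1.16 for PARP10 on 229350_x_at (-1.43 to -0.89). The same 6 of 10 interferon-linked probe sets were called lower than PARP1, where 6.24% of all probe sets were. Relative to PARP2 the same 6 were called, with differences of -0.98 (PARP10) to -1.99 (PARP9), where 0.822% of all probe sets were.

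All differences in such a fit share the noise of the subtracted gene, which spreading the variance over the array does not take into account. With ordinary least squares for each probe set alone, chosen after the data were seen, 4 of 10 stayed below both PARP1 and PARP2, namely PARP9 223220_s_at, DTX3L, PARP14 224701_at and PARP12, at adjusted p between 0.0334 and 0.0499, where 0.298% of all probe sets were called lower than PARP1 and 0.146% lower than PARP2. PARP9 227807_at (adjusted p = 0.06 against PARP1 and 0.15 against PARP2) and PARP10 229350_x_at (0.0608 and 0.127) did not pass in it. PARP1 itself stood 0.18 above PARP2 without a call (interval -0.01 to 0.37, limma adjusted p = 0.484).

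The comparison of (uuaggg)4 with (uuaccc)4 set 2 RNAs of equal length side by side, of which the first can form a G4. It called 3 of the 10 interferon-linked probe sets lower, where 0.159% of all probe sets were called lower, 0.00549% higher and 0.165% in all. These were PARP9 223220_s_at (log2 fold change -1.78, interval -2.32 to -1.23, limma adjusted p = 0.0215), PARP12 (-1.20, -1.59 to -0.80, adjusted p = 0.0302) and PARP14 224701_at (-1.17, -1.46 to -0.88, adjusted p = 0.00578). DTX3L had -0.94 (adjusted p = 0.0756), PARP10 229350_x_at -0.85 (adjusted p = 0.264) and PARP9 227807_at -0.83 (adjusted p = 0.36) without passing, although all 6 were under an unadjusted p of 0.05, as were 9.26% of all probe sets. Each of the 6 was lower with (uuaggg)4 than with (uuaccc)4 in 3 of 3 lines. How many of all probe sets had this order was not counted. The 6 moved together (r of 0.897 or above) and are not separate observations. PARP1 had 0.18 and PARP2 -0.19 to 0.09, with 0 called.

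AS1411 against the reagent alone called 5 of the 10 lower, where 0.311% of all probe sets were called lower, 0.0385% higher and 0.35% in all. PARP9 had log2 fold changes of -2.19 on 223220_s_at (interval -2.73 to -1.65, limma adjusted p = 0.00325) and -1.37 on 227807_at (-1.92 to -0.82, adjusted p = 0.0494). PARP12 had -1.64 (adjusted p = 0.00303), PARP14 224701_at -1.38 (adjusted p = 0.00115) and DTX3L -1.25 (adjusted p = 0.0097). PARP10 229350_x_at had -1.09 and missed the threshold (adjusted p = 0.0594). Of the remaining sets 238083_at of PARP10 was 0.21 higher at an unadjusted p of 0.0492, a level that 11.8% of all probe sets reached, and PARP1 and PARP2 lay between -0.06 and 0.20 with 0 called. Without HBC4 the 3 calls for (uuaggg)4 and the 5 for AS1411 both became 0, and without PC-3 they became 0 and 2. Leaving out the (uuaggg)4 or (uuaccc)4 array of either PC-3 or HBC4 alone also brought the 3 to 0, and leaving out the AS1411 array of PC-3 or HBC4 brought the 5 to 3.

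The RNA control did not differ detectably from the reagent. For (uuaccc)4 against the reagent alone limma called 0 of 54613 probe sets (0%), with 3.12% at an unadjusted p under 0.05, and 0 of the 14 members were among these. Their log2 fold changes ran from -0.19 (PARP10 229350_x_at, interval -0.65 to 0.26) to 0.10 (PARP2 214086_s_at, -0.15 to 0.35). For PARP9 223220_s_at the interval was -0.59 to 0.50, which does not reach the fall seen with (uuaggg)4.

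Between the G4 oligonucleotides, values were lower with AS1411 than with (uuaggg)4 in every line for 5 of the 6 fallen probe sets, but within the error. The share of all probe sets with this order was not counted. The 6 fallen probe sets moved together (r of 0.897 or above), so these 5 are not separate observations. (uuaggg)4 minus AS1411 was 0.36 for PARP9 223220_s_at (interval -0.18 to 0.91), 0.39 for 227807_at (-0.16 to 0.94), 0.30 for PARP12 (-0.09 to 0.70), 0.18 for DTX3L (-0.20 to 0.56) and 0.13 for PARP14 224701_at (-0.16 to 0.42), each positive in 3 of 3 lines. PARP10 229350_x_at had 0.05 (-0.41 to 0.51), with MKN74 of the opposite sign. Limma called 0 of all probe sets (0%), and 4.82% passed the unadjusted level of 0.05. Of the 14 members, 2 were among these at an adjusted p of 1, PARP14 232610_at (-0.23) and PARP10 238083_at (-0.24). These intervals still allow PARP9 to be lower with AS1411 than with (uuaggg)4 by up to 0.91 (223220_s_at) or 0.94 (227807_at) on the log2 scale.

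Calls within single lines were counted next. Of the 10 interferon-linked probe sets 6 were called lower in PC-3, where 0.798% of all probe sets were lower and 1.21% called in all. In HBC4 5 were called, against 0.981% and 1.55%, and in MKN74 4, against 0.652% and 0.831%. PARP9 223220_s_at averaged -1.04 with G4 oligonucleotides and 1.49 in controls of PC-3, 5.80-fold lower. HBC4 had means of -1.57 and 0.62 (4.55-fold lower), and MKN74 of -0.69 and 0.53 (2.34-fold lower). The within-line tests treat AS1411 and (uuaggg)4 as replicates of a class, and the (uuaccc)4 and reagent arrays likewise.

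PARP14 224701_at fell in each line, with a log2 fold change of -1.46 in HBC4, -1.43 in PC-3 and -0.95 in MKN74 (limma adjusted p = 7.70e-05, 7.14e-05 and 0.00348). DTX3L fell in PC-3 (-1.61, adjusted p = 5.08e-05), HBC4 (-0.91, adjusted p = 0.00386) and MKN74 (-0.78, adjusted p = 0.0165). PARP12 likewise fell in PC-3 (-1.94, adjusted p = 6.03e-05), HBC4 (-1.28, adjusted p = 0.00167) and MKN74 (-1.03, adjusted p = 0.0114). PARP10 229350_x_at fell in PC-3 (-1.59, adjusted p = 1.08e-04) and HBC4 (-0.73, adjusted p = 0.0249) and had -0.58 in MKN74 without passing (adjusted p = 0.0955). PARP9 227807_at fell in PC-3 (-1.87, adjusted p = 5.46e-04), with -0.73 in HBC4 (adjusted p = 0.105) and -0.69 in MKN74 (adjusted p = 0.181). PARP1 and PARP2 had 0 calls in each line, the nearest being PARP1 in HBC4 (0.34, adjusted p = 0.228) and PARP2 214086_s_at in PC-3 (-0.31, adjusted p = 0.311).

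**Figure D3:**
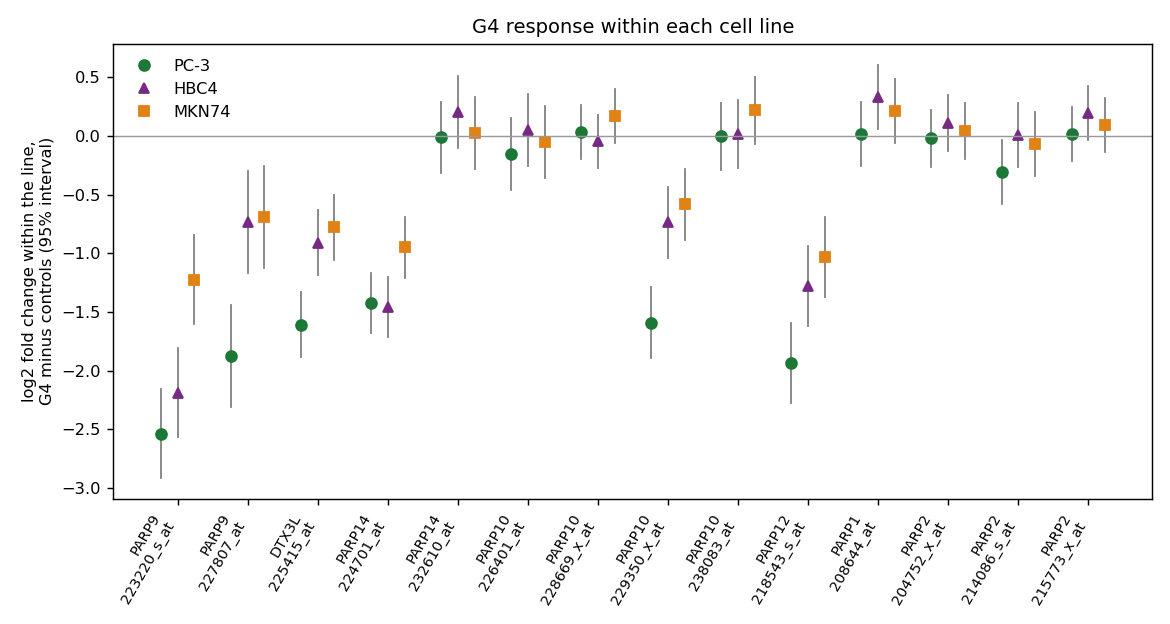
Log2 fold change of the G4 arrays minus the control arrays within PC-3 (circles), HBC4 (triangles) and MKN74 (squares), with 95% intervals, for each of the 14 probe sets (x axis). PARP9 223220_s_at runs from -2.54 in PC-3 to -1.23 in MKN74, and the PARP1 and PARP2 points lie between -0.31 and 0.34.

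Whether the response differed between lines was tested by the interaction of line and oligonucleotide class, which called 0.487% of all probe sets and put 12% under an unadjusted p of 0.05. It called 0 of the 14 members, and the 6 fallen probe sets were all under the unadjusted level. PARP9 223220_s_at and PARP10 229350_x_at came nearest (limma adjusted p = 0.0762 for both), followed by DTX3L (0.116), PARP9 227807_at (0.136), PARP12 (0.188) and PARP14 224701_at (0.303). PARP1 had 0.653. After quantile normalization between arrays PARP9 223220_s_at was called, at an adjusted p of 0.0243.

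Differences between lines in the mean of their 4 arrays, all treatments included, were called for 8 of 14 member probe sets. With 61.2% of all probe sets called, that share is near the background and is no result about the members, whose values by line are given as a description. PARP12 was lowest in PC-3, at a mean of -0.97, against 0.40 in HBC4 and 0.40 in MKN74, which differed from each other by -0.01 (limma adjusted p = 0.975). PARP10 229350_x_at ran from 0.82 in PC-3 over 0.34 in HBC4 to -0.68 in MKN74, and each neighbouring pair differed (adjusted p = 0.0449 and 5.24e-04). PARP14 224701_at was highest in PC-3 (0.46), above -0.13 in HBC4 and -0.21 in MKN74, and HBC4 and MKN74 did not differ beyond their spread (adjusted p = 0.626).

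Between lines 61.2% of all probe sets were called, and for G4 against controls 1.57%. PARP2, called between lines on its 3 probe sets and not for G4 against controls, is therefore only described. On 215773_x_at its mean was 0.56 in MKN74, 0.01 in PC-3 and -0.25 in HBC4 (limma adjusted p = 6.87e-05 for PC-3 minus MKN74 and 0.018 for PC-3 minus HBC4). The order was the same on 214086_s_at (0.53, 0.01 and -0.31) and 204752_x_at (0.49, -0.01 and -0.18), where PC-3 and HBC4 did not pass on the last (adjusted p = 0.0882). PARP9 223220_s_at was called over the 3 lines (adjusted p = 0.0378), with PC-3 0.70 above HBC4. DTX3L (adjusted p = 0.327), PARP9 227807_at (0.398) and PARP1 (0.213) were not called between lines, and neither were PARP14 232610_at and the PARP10 sets 226401_at and 228669_x_at, while PARP10 238083_at was (0.0133).

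The 6 fallen probe sets moved together across arrays. With line means removed, the 15 pairs among them had Pearson correlations of 0.897 to 0.996 over 12 arrays, the highest for DTX3L with PARP12. The 24 pairs of a fallen probe set with one of PARP1 or PARP2 ran from -0.65 to 0.63. These points share their arrays and the division into G4 and control, so the correlations describe that shared pattern.

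PARP9, DTX3L and PARP14 lie side by side on chromosome 3, with PARP15 between DTX3L and PARP14, in the gene order of RefSeq GRCh38.p14. PARP9 and DTX3L face away from each other across a short stretch, so that their start sites are 38 bases apart. None of the probe sets of the genes around them was called. The nearest 10 protein-coding genes, 5 on each side, have 20 probe sets for 9 genes, of which 0 were called for G4 against controls. With 1.57% of all probe sets called, 0 of 20 is near the background and is no result about these genes. KPNA1, an importin of nuclear transport and the neighbour next to PARP9, had log2 fold changes of -0.27 to -0.05 on 6 probe sets, the lowest at an adjusted p of 0.111. WDR5B next to it had -0.23 (adjusted p = 0.18) and FAM162A -0.23 to 0.06. Farther out on that side MIX23 had 0.09 and CSTA 0.04. On the other side HSPBAP1 had -0.10 (adjusted p = 0.663), SLC49A4 -0.07 on both of its probe sets, SEMA5B 0.09 and SEC22A -0.09 and -0.05, and PDIA5 has no probe set named here. PARP15, which lies within the group, had -0.04 (adjusted p = 0.815) and 0.14 (adjusted p = 0.378).

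**Figure D4:**
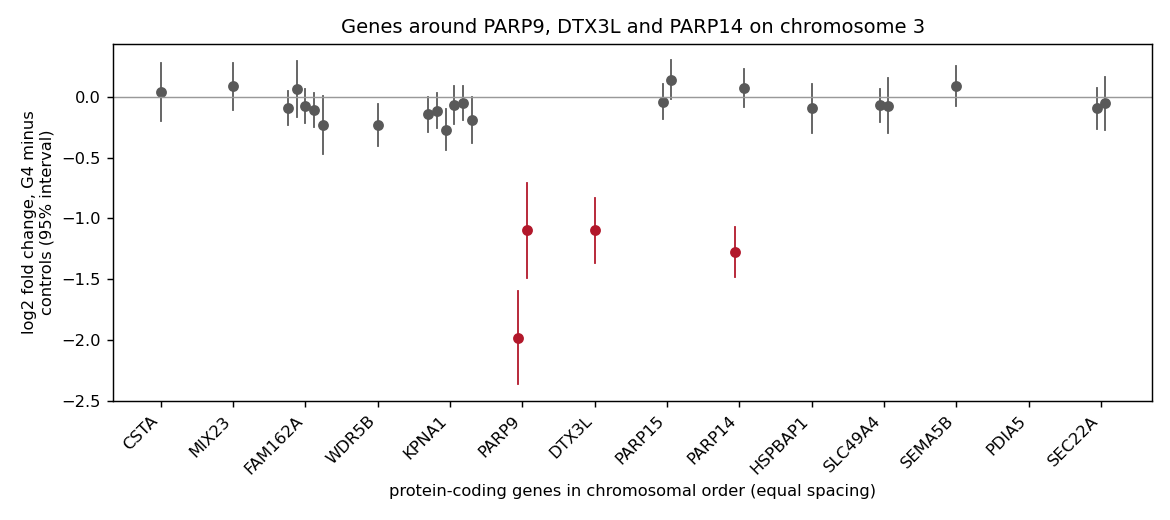
Log2 fold change of the G4 arrays minus the control arrays with 95% intervals (y axis) for each probe set of the protein-coding genes around PARP9, DTX3L and PARP14, in chromosomal order with equal spacing (x axis). Red points passed an adjusted p of 0.05. The red points of PARP9, DTX3L and PARP14 lie between -1.98 and -1.10, and all other points, PARP15 included, lie between -0.27 and 0.14.

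The promoters of 6 members are shown because the interferon-stimulated response element, the site bound by the interferon-activated factors of the STAT and IRF families, has a recognisable core. Each RefSeq window on GRCh38.p14, from 250 bases before a start site to 50 after it, was searched on both strands for GAAANNGAAA, and 60 bases of it, ending 10 bases after the start, are printed in the direction of the gene with the match in capitals. PARP9 is given at the start nearest DTX3L (chr3:122564291-122564350, minus strand), DTX3L at chr3:122564288-122564347 (plus), PARP14 at chr3:122680789-122680848 (plus), PARP12 at chr7:140062942-140063001 (minus), PARP1 at chr1:226408084-226408143 (minus) and PARP2 at chr14:20343585-20343644 (plus).
PARP9: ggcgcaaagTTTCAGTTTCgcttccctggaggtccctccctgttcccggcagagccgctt
DTX3L: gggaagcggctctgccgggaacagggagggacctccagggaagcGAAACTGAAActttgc
PARP14: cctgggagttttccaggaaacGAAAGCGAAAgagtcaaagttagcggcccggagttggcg
PARP12: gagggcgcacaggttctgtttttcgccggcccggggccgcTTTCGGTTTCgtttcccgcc
PARP1: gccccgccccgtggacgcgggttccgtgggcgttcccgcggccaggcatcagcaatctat
PARP2: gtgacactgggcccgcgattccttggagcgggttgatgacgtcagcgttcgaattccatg

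A match was present for PARP9, DTX3L, PARP14 and PARP12 and for neither PARP1 nor PARP2 (PARP10 was not searched), where 3.57% of all 35116 windows and 4.38% of the genes held one. PARP9 and DTX3L share the same 10 bases, read from opposite strands, beginning 41 bases before the start of PARP9 and 6 before that of DTX3L. The match began 29 bases before the start of PARP14 and 10 before that of PARP12. The other start of PARP9, 446 bases from that of DTX3L, had none in its window. The shorter motif TTCNNNGAA, the core of the gamma-activated site bound by STAT dimers, matched in the windows of PARP14 (40 bases before the start) and PARP2 (154 before), where 7.66% of all windows held it. A match says only that these letters are in the window, and binding was not measured.

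Of the 25 probe sets of the other 11 measured genes of the PARP family 3 were called lower, where 1.1% of all probe sets were. Beyond the members, these 11 genes, with a median log2 fold change of -0.12, had 1 gene that fell and 0 that rose. It was ZC3HAV1, the zinc finger antiviral protein also called PARP13, on 3 probe sets (-1.05, adjusted p = 7.17e-04, -0.79, adjusted p = 0.0047, and -0.68, adjusted p = 0.00498, limma). Of the others PARP6 came nearest (-0.50 on the lowest of 3 probe sets, adjusted p = 0.0735). The 4 other Deltex genes, relatives of DTX3L, had 0 of 8 probe sets called and a median of 0.02, with DTX3 (0.13 on the highest of 5 probe sets, adjusted p = 0.368) and DTX4 (-0.08, adjusted p = 0.717) nearest. Proteins that remove or read ADP-ribose (8 genes, 20 probe sets, median -0.01) had 0 called, the nearest being MACROH2A1, a histone variant with a macrodomain (-0.20 on the lowest of 7 probe sets, adjusted p = 0.144, and up to 0.08 on the others), and PARG, the hydrolase of ADP-ribose chains (-0.18, adjusted p = 0.202). With 1.57% of all probe sets called, 0 of 8 and 0 of 20 are near the background and are no result about these 2 lists.

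The partners of PARP1 and PARP2 in single-strand break repair (11 genes, 29 probe sets, median 0.05) had 0 called. With 1.57% of all probe sets called, 0 of 29 is near the background and is no result about these genes. APEX1, the endonuclease of abasic sites, had 0.30 (adjusted p = 0.0646) and the ligase LIG3 had 0.33 on 1 of its 6 probe sets (adjusted p = 0.085), the others lying between -0.09 and 0.19. Among 10 genes of the supply and use of NAD (27 probe sets, median 0.01) 1 rose, NNMT, which methylates nicotinamide (0.51, adjusted p = 0.0446), with no call on its other 2 probe sets (0.35, adjusted p = 0.308, and 0.02, adjusted p = 0.95). Against 1.57% of all probe sets, 1 call in 27 is no result about this list. Of 10 genes of interferon signalling (24 probe sets, median -0.12) 3 fell and 0 rose. Of their 24 probe sets 4 were called lower, where 1.1% of all probe sets were. IRF7 had -1.09 (adjusted p = 0.00105), IRF9 had -0.99 (adjusted p = 0.00612) and IRF1 had -0.48 and -0.52 on its probe sets (adjusted p = 0.00754 and 0.0176), all of them transcription factors of the interferon response. The kinase JAK2 (3 probe sets, -0.46 to -0.04, smallest adjusted p = 0.0527) and receptor chain IFNAR2 (3 probe sets, -0.26 to 0.11, smallest adjusted p = 0.0725) did not pass.

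The genes most like each member were ranked by Pearson correlation over the 12 arrays with line means removed, where members with several probe sets were averaged. PARP9 was closest to EIF2AK2, the RNA-activated kinase PKR (r = 0.998), SP110 (0.997), IFIT2 (0.995), RIGI (0.995) and ZC3HAV1 (0.994). DTX3L was closest to EIF2AK2 (0.994), IFI35, PSMB9, SP110 and IFIT5, all at 0.991 or above, and PARP12 to IFIT5, ZC3HAV1, SP110, EIF2AK2 and IFIT2, at 0.993 or above. PARP14 had IFI44, DDX60, ZNFX1, ZNF512B and SAMD9 at 0.981 or above. The genes named with these 4 members were themselves called lower on the probe sets that ranked, with log2 fold changes of -0.36 (ZNF512B) to -3.02 (IFI44). They were picked for following the members over these same arrays, which share the division into G4 and control. Their calls therefore follow from the ranking and are no separate evidence.

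PARP10 was averaged over its 4 probe sets, of which only 229350_x_at fell. This average was closest to HMGXB3 (r = 0.988), RALGAPA1 (0.984), DGUOK (0.976), PAFAH1B1 (0.972) and FAF2 (0.965), none of which was called (-0.19 to -0.09). By itself 229350_x_at had correlations of 0.93 (PARP14 224701_at) to 0.98 (DTX3L) with the other fallen probe sets, so the average does not describe it. PARP1 was closest to HELLS, a chromatin remodeller (0.977), UBE2T, a conjugating enzyme of DNA crosslink repair (0.966), PPP3CC (0.958), SYNJ2 (0.954) and CSE1L (0.947), with log2 fold changes of 0.13 to 0.24 and no call on these probe sets. The lists of closest genes were taken from all probe sets that name 1 gene, so high correlations are what the ranking selects.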

How the data were processed

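Per the submitters' processing notes the authors used RMA (its version is not given in the sources used here). Their deposited log2 expression values are centred, since the median of every probe set is 0 to within 5e-07, and how the authors centred them is not stated. Base 2 is that of RMA's usual output. Levels, detection calls and dim-probe filters are therefore not given, and the number of arrays limits the precision.

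Members and gene lists were chosen with earlier results of these data known. Names came from the platform annotation: 41091 probe sets named 1 gene, 1801 several and 11721 none here, and 62 array controls were left out. Members of a list without a named probe set count as unmeasured. The rule for named genes was every member probe set, every list gene past the threshold (or the nearest by p where none passed), the 5 neighbours on each side and the 5 closest genes by correlation. JAK2, IFNAR2, PARP6 and the other NNMT probe sets were named after their values were seen.

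Limma 3.58.1 (R 4.3.3) was run on all 54613 other probe sets. Treatment was fitted with cell line as the replicate block (6 residual degrees of freedom), since same-numbered arrays are the same line. Its spread is pooled over the 4 treatments. (uuaggg)4 against (uuaccc)4 and AS1411 against the reagent use the arrays of the G4 comparison. The line model held an oligonucleotide class effect per line. Relative fits subtracted PARP1 or mean PARP2 per array. The scripts were tested on simulated data. Promoter windows are those of RefSeq for GRCh38.p14, and 6 of 7 members matched an entry. Alternatives were no block, quantile normalization, a variance trend, 6-array fits, averaged probe sets, exact permutation, and each array or line left out.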

Additional observations from a re-analysis of the deposited data

How the results depend on the processing

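Without the replicate block (the cell line left out of the model) the counts became 0 in place of 859 probe sets in all, 6 interferon-linked probe sets lower, 3 for (uuaggg)4 against (uuaccc)4, 5 for AS1411 against the reagent alone, and 6 each relative to PARP1 and to PARP2, since line differences then enter the spread. Exact permutation within lines, whose smallest p cannot pass after adjustment here, gave 0 in all and 0 interferon-linked. With only the 6 arrays of the treatments compared, (uuaggg)4 had 1 and AS1411 had 3. After quantile normalization the interaction called 1 member in place of 0, for which the cause was not tested, while G4 against controls had 592 calls in all and 6 interferon-linked ones. With an array or a line left out, the count in all ran from 80 to 654, the interferon-linked count from 3 to 6, that of (uuaggg)4 from 0 to 4 and that of AS1411 from 0 to 5. The interferon-linked count stayed at 6 under every such omission except that of HBC4, which left 3 of 10 (and 80 in all), with PARP9 227807_at (adjusted p = 0.112), DTX3L (0.056) and PARP10 229350_x_at (0.122) no longer called. Without PC-3 the count in all was 218, and without MKN74 it was 378. The fold change of PARP10 226401_at reversed to 0.0035 without the AS1411 array of PC-3 and to 0.0019 without PC-3 (range -0.10 to 0.0035), and that of PARP10 228669_x_at to -0.0045 without MKN74 (range -0.0045 to 0.10). PARP1 and PARP2 had 0 calls under all 21 alternatives, and (uuaccc)4 against the reagent and (uuaggg)4 against AS1411 had 0 interferon-linked calls under all 19.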
